A study of Mus musculus with 14 samples.

Results

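Glycolysis and the response to low oxygen were followed through 32 genes, chosen by name from a fixed list, in 14 mouse RNA-seq libraries. All 32 genes were found among the 24054 genes of the tables. They comprised 18 enzymes of glycolysis, 4 transporters of glucose or lactate, 3 genes of the pyruvate dehydrogenase step, and 7 genes of the Hif pathway or of glycolytic regulation.

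The libraries were made from low amounts of RNA of sorted cells and fell into 6 groups. The groups d0con and d0ko (n = 2 libraries each) were embryonic stem cells (ESCs) of day 0, grown for a day on red-fluorescent, mitomycin-treated embryonic fibroblasts in LIF-free ESC medium and sorted as Cherry-negative. By the study's account these ESCs carried no Sox17-Cherry reporter. The groups d3con and d3ko (n = 3 each) were Venus-positive cells of day 3, which had been pre-plated in 2 rounds to remove the fibroblasts and grown on Wnt3a-secreting feeder cells in endoderm differentiation medium with Activin A at 12 ng/ml. Cells of the con groups were Foxa2-Venus-KO/+, with a fluorescent Venus reporter in place of the coding region on a single Foxa2 allele, and cells of the ko groups were Foxa2-Venus-KO/Foxa2-Venus-KO. Every day 0 and day 3 group therefore carried at least 1 Venus allele. Each genotype was represented by only 2 ESC clones, with replicates 1 and 3 of the day 3 groups from the same clone. The groups d2-FVFn and d2-FVFp (n = 2 each) were the Venus-negative and Venus-positive fractions of another ESC line, TetON-Foxa2-Venus. That line was derived from Sox17-Cherry ESCs, kept on gelatin in LIF medium without feeders, and given doxycycline at 40 ng/ml for 48 h. No group was set up with lowered oxygen, and medium, feeder cells and sorting gate changed together with the day, so that their effects cannot be told apart from those of the day. LIF and the absence of feeders likewise went with the doxycycline line.

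In glycolysis, glucose enters the cell through facilitative transporters, is trapped by hexokinases and is split and oxidised to pyruvate. Lactate dehydrogenase then interconverts pyruvate and lactate, which leaves through proton-coupled monocarboxylate transporters, while pyruvate dehydrogenase passes pyruvate carbon to the mitochondria. The transcription factor Hif1a is destroyed when oxygen is present, after hydroxylation by the Egln enzymes. When oxygen is low it persists and binds sites with a core such as ACGTG near genes for glucose uptake, glycolysis, angiogenesis and mitophagy. Many steps are encoded by several isoform genes with different regulation, and mouse ESCs are known for a high glycolytic rate.

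The core of the Hif site was looked up in the 250 bases before the RefSeq start sites (GRCm38.p6), on both strands (ACGTG or CACGT). Other forms of the core were not searched, so a window without a match is not shown to lack a Hif site. Of the 32 genes, 31 had an entry and Slc2a3 had none. At least 1 match was found for 17 of these 31 genes (54.8%) and for 4998 of 27025 genes in the table (18.5%). A gene with several starts had several windows, and a palindromic CACGTG, which is also an E-box, counted as 2 overlapping matches. The genes were listed as known Hif targets in part, so this share is not independent of the list. Of the genes called below, Slc16a1, Bnip3, Pgk1 and Vegfa (in 1 of its windows) had a match, and Ldhb, Pfkp, Aldoc, Eno2 and Pdk1 had none. Windows of 5 genes are shown, for the isoform pairs Ldha with Ldhb and Slc16a3 with Slc16a1 and for the oxygen sensor Egln3. Capitals mark the core on either strand.

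Ldha (chr7:46845554-46845803, plus strand): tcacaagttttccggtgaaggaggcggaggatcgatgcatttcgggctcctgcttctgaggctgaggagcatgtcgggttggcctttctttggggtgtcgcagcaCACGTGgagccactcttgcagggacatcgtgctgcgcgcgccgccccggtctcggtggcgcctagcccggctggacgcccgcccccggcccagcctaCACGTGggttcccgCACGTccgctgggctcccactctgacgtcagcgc

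Ldhb (chr6:142507958-142508207, minus strand): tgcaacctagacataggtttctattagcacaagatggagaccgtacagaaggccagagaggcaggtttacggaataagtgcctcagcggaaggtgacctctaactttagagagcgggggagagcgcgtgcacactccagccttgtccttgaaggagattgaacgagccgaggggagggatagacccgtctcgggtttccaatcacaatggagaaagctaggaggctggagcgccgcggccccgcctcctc

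Slc16a3 (chr11:120948817-120949066, plus strand): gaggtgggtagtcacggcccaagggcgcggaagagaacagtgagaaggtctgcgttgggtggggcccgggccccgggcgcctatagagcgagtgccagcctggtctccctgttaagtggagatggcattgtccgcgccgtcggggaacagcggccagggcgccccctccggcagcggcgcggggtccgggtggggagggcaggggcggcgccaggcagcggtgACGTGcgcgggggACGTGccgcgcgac

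Slc16a1 (chr3:104638414-104638663, plus strand): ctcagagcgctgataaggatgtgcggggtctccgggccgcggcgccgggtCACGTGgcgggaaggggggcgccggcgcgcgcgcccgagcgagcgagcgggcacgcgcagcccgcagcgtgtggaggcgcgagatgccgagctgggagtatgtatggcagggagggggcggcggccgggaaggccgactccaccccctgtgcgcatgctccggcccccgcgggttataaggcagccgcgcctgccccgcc

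Egln3 (chr12:54203875-54204124, minus strand): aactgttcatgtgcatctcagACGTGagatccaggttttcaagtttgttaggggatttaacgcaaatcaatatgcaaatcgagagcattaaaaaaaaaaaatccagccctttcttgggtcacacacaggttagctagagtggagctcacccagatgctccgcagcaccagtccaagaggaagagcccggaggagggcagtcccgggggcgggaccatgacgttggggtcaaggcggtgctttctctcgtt

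Ldha has 2 starts with a window, although its gene span begins further upstream, at chr7:46842274. The Slc16a3 window likewise lies inside its gene span, which begins at chr11:120948484, so the windows need not cover every annotated start. The window shown held 5 matches, beginning 145, 144, 48, 47 and 34 bases before its start, while the window of the other start (chr7:46846832-46847081) held 0, as did the single window of Ldhb. The Slc16a3 window held 2 matches, the Slc16a1 window 2 that overlap in a single CACGTG, and the Egln3 window 1. Windows with 3 or more matches made up 1.22% of all 32851 windows.

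Library totals ranged from 14142788 to 27278237 expected counts. Foxa2, the targeted gene, lay between 0.07 and 0.19 TPM (a level per transcript length, scaled to the same total in each library) in all d0con, d0ko and d3ko libraries, between 34.8 and 58.6 TPM in d3con, at 2.99 and 2.01 TPM in d2-FVFn and at 168.6 and 159.8 TPM in d2-FVFp. Some day 3 libraries stood apart. The summed TPM of 6 pluripotency markers (Pou5f1, Nanog, Sox2, Zfp42, Klf4, Dppa5a) was 15431 and 17364 in d3ko replicates 1 and 3. It was 13787 to 15663 at day 0, 2668 in d3ko replicate 2 and 562 to 985 in d3con. Most of the high sums was Dppa5a, at 14200, 1867 and 15543 TPM in d3ko replicates 1, 2 and 3. Pou5f1, at 523, 501 and 944 TPM there, was below its day 0 levels of 1335 to 1467 TPM. Nanog, at 254, 240 and 345 TPM, also differed little between d3ko replicates 1 and 2. Sox2, Zfp42 and Klf4 were clearly lowest in replicate 2. The summed TPM of 8 endoderm markers was 838 to 1383 in d3con and 33.5 to 170 in d3ko. Effective gene lengths gave a read length of 75 bases for d3con replicate 1 and d3ko replicate 1, and of 50 bases for the remaining 12. The summed TPM of 10 fibroblast markers was 12.7 to 15.0 in d0con, 38.8 to 138 in d0ko, 60.6 to 308 in d3con, 136 to 371 in d3ko and 3.00 to 4.37 in the doxycycline line, where Fap was at 0 in d2-FVFp and Postn and Fap at 0 in d2-FVFn. The part of feeder cells in the day 3 results was not tested.

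All 32 genes passed the filter on low counts in both fits. A gene was called when edgeR's quasi-likelihood test gave a Benjamini-Hochberg adjusted p under 0.05 over all genes and the absolute log2 fold change was above 1. From day 0 to day 3 in control cells, 6 of the 32 genes rose (Vegfa, Slc16a1, Eno2, Aldoc, Slc2a3, Bnip3) and 2 fell (Pfkp, Pdk1). Over all 13899 genes tested, 20.6% rose and 14.6% fell, so that the shares of 18.8% and 6.25% among the 32 were not above the background. In the knockout, 5 of the 32 genes rose from day 0 to day 3 (Vegfa, Eno2, Aldoc, Ldhb, Pgk1) and 0 fell, against 11.6% and 5.72% of all genes. Between the genotypes at day 3, Ldhb and Pfkp were higher and Slc16a1 and Slc2a3 were lower in d3ko than in d3con, again against a background of 4.75% higher and 3.51% lower. At day 0, 0 of the 32 genes were called between the genotypes, as were 0% of all genes. In the doxycycline line Vegfa and Eno2 were higher and Ldhb was lower in Venus-positive cells, against 6.96% and 1.47% of 12943 genes tested. Shares of 15.6% in the knockout and of 6.25% in each direction between the day 3 genotypes were likewise near the background. Without d0con replicate 2 the control count was 5, without d0ko replicate 1 the knockout count was 3, and without d2-FVFn replicate 2 the doxycycline count was 1. These 3 counts are given without the share of all genes and show only how far the calls depended on 1 library. The day and genotype comparisons share libraries and are not independent of each other. In bulk RNA, fewer cells of a type and less RNA per cell cannot be told apart.

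**Figure D1:**
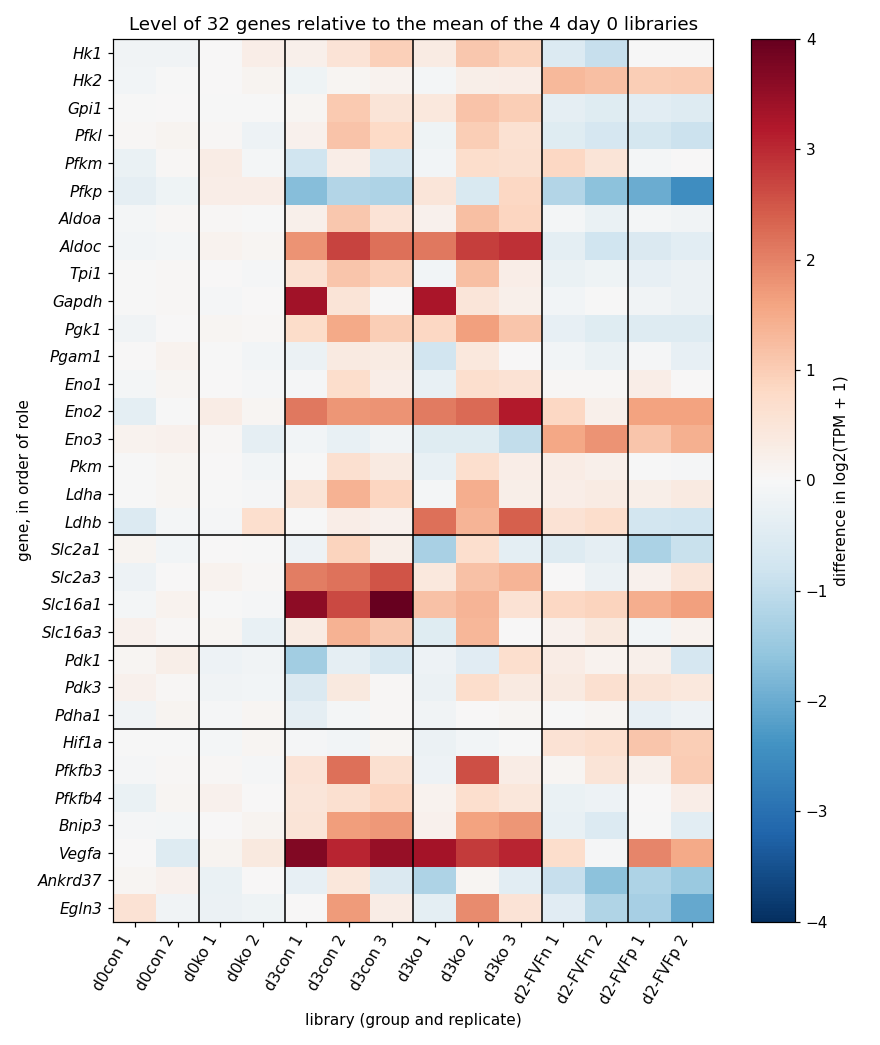
Difference in log2(TPM + 1) from the mean of the 4 day 0 libraries for the 32 genes (vertical axis, in order of role, black lines between classes) in each of the 14 libraries (horizontal axis). Vegfa, Aldoc, Eno2 and Slc16a1 are higher in every day 3 library than at day 0, Ldhb is raised in d3ko, and Gapdh stands out in the 2 libraries of 75-base reads. The colour scale ends at 4.

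**Figure D2:**
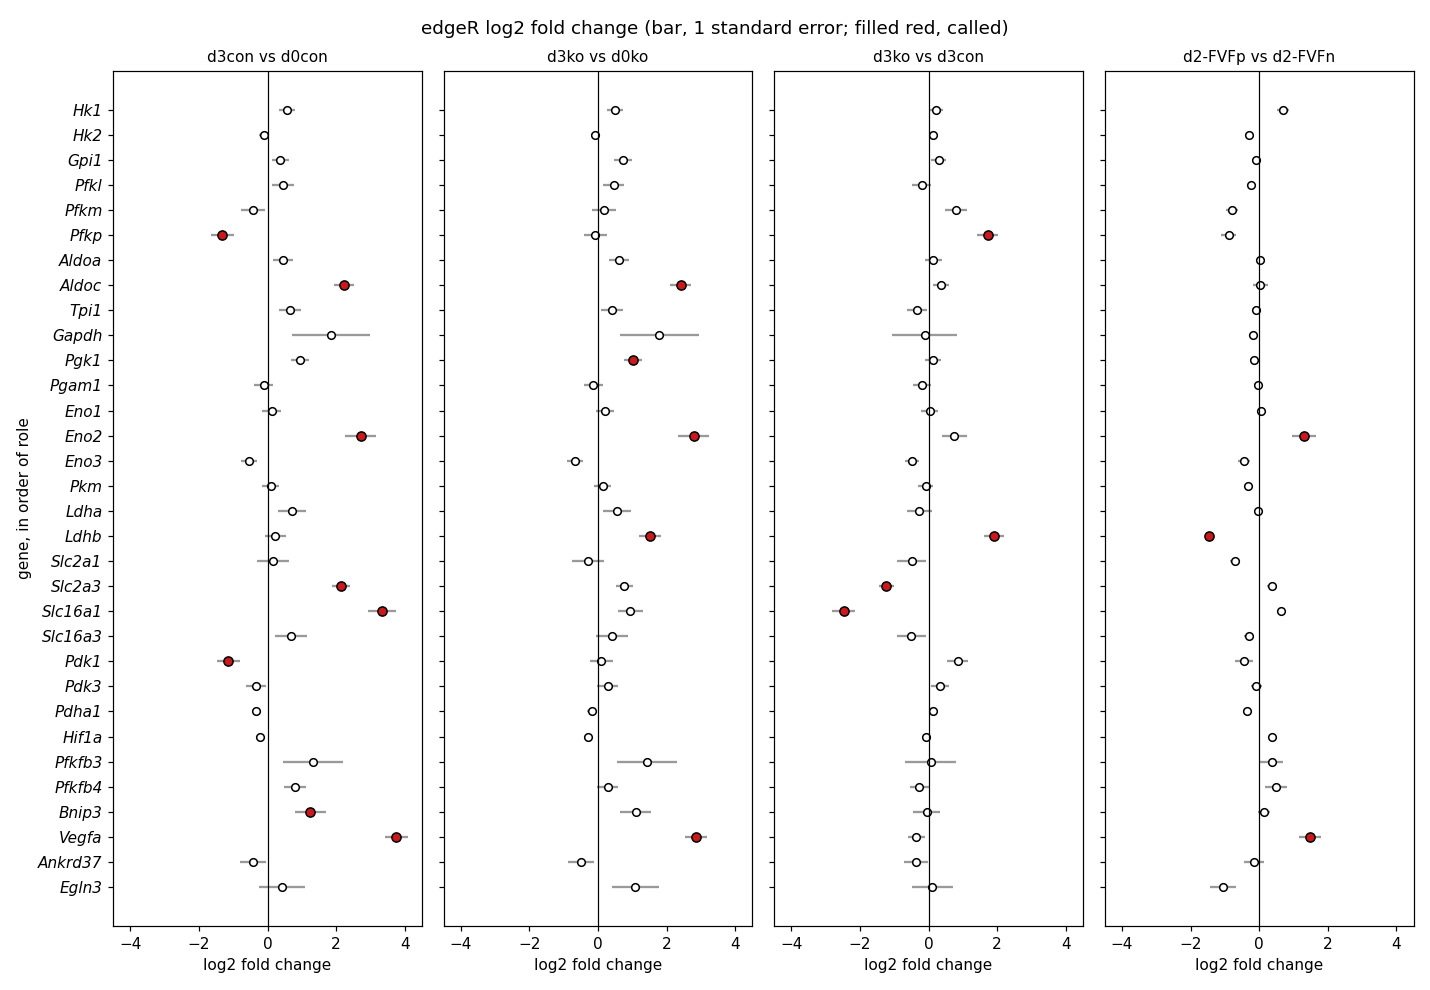
Log2 fold change of the 32 genes (vertical axis) in 4 comparisons, with bars of 1 standard error from edgeR. Filled points mark called genes, which number 8, 5, 4 and 3 from left to right.

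Glucose is taken up by Slc2a1 (Glut1), the widespread basal transporter, and Slc2a3 (Glut3), a transporter of high affinity. Slc2a3 (chr6:122727809-122802363) was at 487 and 576 TPM in d0con, 621 and 592 in d0ko, 2350, 2565 and 3276 in d3con, and 763, 1270 and 1454 in d3ko. All day 3 libraries lay above all day 0 libraries, and all d3con libraries lay above all d3ko libraries. The rise was 2.15 ± 0.26 on the log2 scale (SE, adjusted p = 0.00039) in control cells. In the knockout it was 0.77 ± 0.24 (adjusted p = 0.041), which did not reach the required change of 1. The direct comparison of d3ko with d3con gave -1.23 ± 0.22 (adjusted p = 0.013). Slc2a3 measured 576 and 485 TPM in Venus-negative and 636 and 798 TPM in Venus-positive cells of the doxycycline line (0.39 ± 0.14, adjusted p = 0.11).

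Slc2a1 did not pass in any comparison. Its levels were 920 and 793 TPM in d0con, 861 and 850 in d0ko, 744, 1576 and 1004 in d3con, and 344, 1362 and 657 in d3ko. In both day 3 groups replicate 2 was the highest library. Slc2a3 accordingly made up 34.6% to 42.1% of the summed TPM of the pair at day 0, 61.9% to 76.5% in d3con and 48.2% to 68.9% in d3ko. It was 48.9% and 42.0% in doxycycline-treated Venus-negative and 64.4% and 63.4% in Venus-positive cells, where Slc2a1 was at 601 and 670 against 352 and 461 TPM (-0.69 ± 0.15, adjusted p = 0.022, short of a 2-fold change).

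Lactate and pyruvate cross the plasma membrane through Slc16a1 (Mct1), which carries them in both directions, and Slc16a3 (Mct4), which is known for lactate export. Slc16a1 (chr3:104638664-104658462) showed the largest change of the 4 transporters. It was at 57.6 and 67.3 TPM in d0con, 61.1 and 59.2 in d0ko, 745, 386 and 1036 in d3con, and 139, 159 and 92.1 in d3ko. The d3con libraries were separated from all others, and the d3ko libraries lay between day 0 and d3con. The change was 3.33 ± 0.41 in control cells (adjusted p = 0.00043), 0.94 ± 0.37 in the knockout (adjusted p = 0.080) and -2.48 ± 0.34 between d3ko and d3con (adjusted p = 0.0092). Its level was 109 and 115 TPM in Venus-negative and 171 and 191 TPM in Venus-positive cells of the doxycycline line, a difference of 0.64 ± 0.12 (adjusted p = 0.014) that was short of the required change.

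Slc16a3 was at 263 and 238 TPM in d0con, 248 and 188 in d0ko, 295, 610 and 490 in d3con, and 165, 585 and 237 in d3ko, and passed in none of the comparisons. The share of Slc16a1 in the summed TPM of both carriers was 18.0% to 23.9% at day 0 and 38.8% to 71.7% in d3con, while d3ko ranged from 21.4% to 45.7%. Emb (embigin), an accessory protein of these carriers taken from a wider list, was at 1793, 1316 and 2196 TPM in d3con against 190, 715 and 192 TPM in d3ko (-2.29 on the log2 scale, adjusted p = 0.022). Bsg (basigin) of the same list differed less, at 1175, 1512 and 1427 TPM in d3con and 707, 1162 and 1028 TPM in d3ko.

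Whether the day effect itself depended on the genotype was tested as an interaction in the same fit, and 0 of the 32 genes passed in edgeR. At an unadjusted p under 0.05 there were 5 of the 32, against 13.2% of all genes. The estimates for Slc16a1 and Slc2a3 were -2.38 ± 0.51 (adjusted p = 0.15) and -1.38 ± 0.34 (adjusted p = 0.16). DESeq2 called both, with adjusted p = 0.0012 and 0.010. Without d3ko replicate 2, edgeR called Slc16a1, Slc2a3, Ldhb and Pfkp, and without d3con replicate 2 it called Slc16a1.

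**Figure D3:**
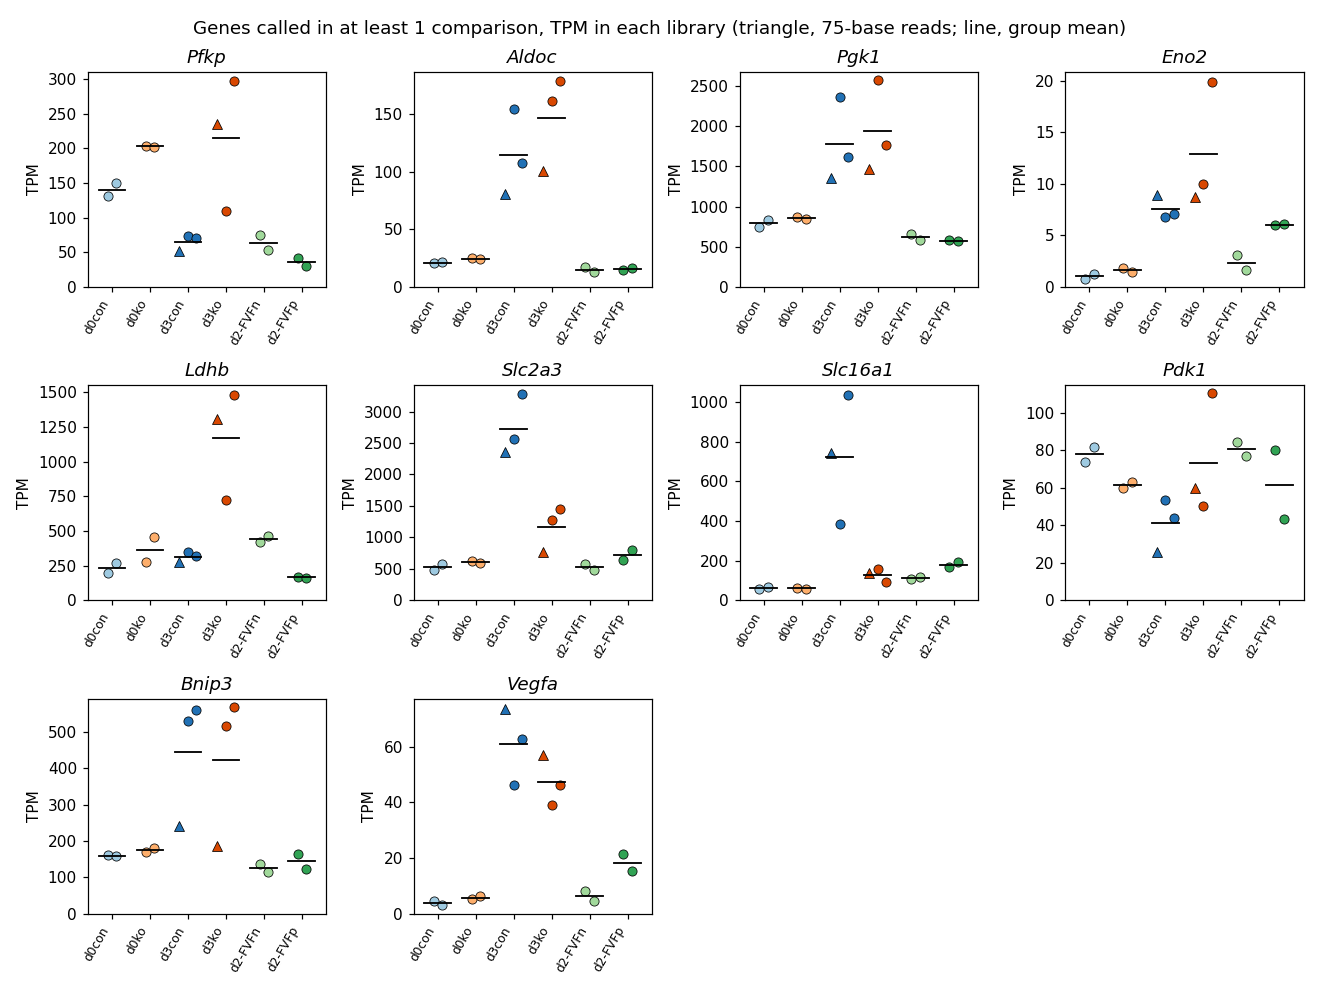
TPM in each library (vertical axes, starting at 0) by group for the 10 genes called in at least 1 comparison. Points are libraries, triangles the 2 libraries of 75-base reads, and lines group means. The d3con and d3ko points do not overlap for Pfkp, Ldhb, Slc2a3 and Slc16a1.

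The first committed step of glycolysis is catalysed by phosphofructokinase, a tetramer built from liver (Pfkl), muscle (Pfkm) and platelet (Pfkp) type subunits. Pfkp (chr13:6579874-6649060) was at 132 and 149 TPM in d0con, 203 and 202 in d0ko, 51.5, 73.8 and 70.5 in d3con, and 235, 110 and 297 in d3ko. It fell by 1.32 on the log2 scale from d0con to d3con (SE 0.33, adjusted p = 0.0098). From d0ko to d3ko the estimate was -0.08 ± 0.34, and d3ko was higher than d3con by 1.72 ± 0.31 (adjusted p = 0.014). The fall in control cells no longer passed without d0con replicate 2 (-1.22, adjusted p = 0.059). With doxycycline Pfkp was at 74.2 and 53.7 TPM in Venus-negative and 41.8 and 29.6 TPM in Venus-positive cells (-0.89 ± 0.22, adjusted p = 0.035, short of a 2-fold change). Of its stretches of 50 and 75 bases, 17.1% and 16.6% also occur in another annotated gene.

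Pfkl was the most abundant subunit in all libraries, at 463 and 478 TPM in d0con, 457 and 389 in d0ko, 501, 976 and 775 in d3con, and 400, 885 and 680 in d3ko. Pfkm stayed between 16.7 and 53.5 TPM. The share of Pfkp in the summed TPM of the 3 genes was 21.3% to 32.6% at day 0, 6.80% to 9.06% in d3con, and 35.6%, 10.5% and 29.0% in d3ko replicates 1, 2 and 3.

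Lactate dehydrogenase is a tetramer of the Ldha subunit, favoured where pyruvate is reduced to lactate, and the Ldhb subunit, favoured where lactate is oxidised. Ldhb (chr6:142490249-142507957) was at 194 and 268 TPM in d0con, 274 and 458 in d0ko, 279, 345 and 320 in d3con, and 1304, 724 and 1484 in d3ko. The d3ko libraries were separated from all the others. The change was 1.51 ± 0.33 from d0ko to d3ko (adjusted p = 0.010, and 0.10 without d0ko replicate 1), 0.23 ± 0.31 from d0con to d3con (adjusted p = 0.55), and 1.90 ± 0.29 between d3ko and d3con (adjusted p = 0.011). Ldhb was lower in the Foxa2-induced fraction, with 424 and 467 TPM in Venus-negative and 170 and 163 TPM in Venus-positive cells (-1.47 ± 0.12, adjusted p = 0.0013). Of its stretches of 50 and 75 bases, 27.0% and 16.7% also occur in another annotated gene.

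Ldha was at 3953 and 4269 TPM in d0con, 3979 and 3941 in d0ko, 5777, 10583 and 7286 in d3con, and 3786, 11129 and 4731 in d3ko, and passed in no comparison. Its spread among d3ko libraries exceeded the distance between groups. Ldhb made up 4.69% to 10.4% of the summed TPM at day 0 and 3.16% to 4.61% in d3con, but 25.6%, 6.11% and 23.9% in d3ko replicates 1, 2 and 3. The share with doxycycline was 8.0% and 8.45% in Venus-negative and 3.46% and 3.04% in Venus-positive cells.

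For Ldhb and Pfkp the high d3ko libraries were replicates 1 and 3, from the same clone. These also held the pluripotency marker sums of 15431 and 17364 TPM, most of which was Dppa5a. Replicate 2 of the other clone was lower in all 3 measures, but its Pou5f1 and Nanog levels were near those of replicate 1. Among same-numbered libraries the ratio of d3ko to d3con was 4.67, 2.10 and 4.63 for Ldhb and 4.57, 1.49 and 4.21 for Pfkp. The ratio of d3con to d3ko was 5.38, 2.42 and 11.3 for Slc16a1 and 3.08, 2.02 and 2.25 for Slc2a3, again smallest in replicate 2. The part of undifferentiated cells in these differences was not tested. The 4 calls between the day 3 genotypes depended on which libraries were fitted. With the 2 libraries of 75-base reads left out, which made the comparison 2 against 2 in reads of equal length, 0 of the 32 genes and 1 of 13628 genes passed, although the estimates stayed at 1.74 for Ldhb, 1.5 for Pfkp, -2.49 for Slc16a1 and -1.09 for Slc2a3. In a fit of the day 3 libraries alone only Ldhb passed, and without d3con replicate 3 only Slc16a1. Pfkp was also lost without d3con replicate 1 (1.59, adjusted p = 0.066). Without d3ko replicate 2, 7 of the 32 genes passed, with Slc2a1, Slc16a3 and Pdk1 added. The share of all genes passing in that fit is not given, so this count is not read as a result about the 32.

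**Figure D4:**
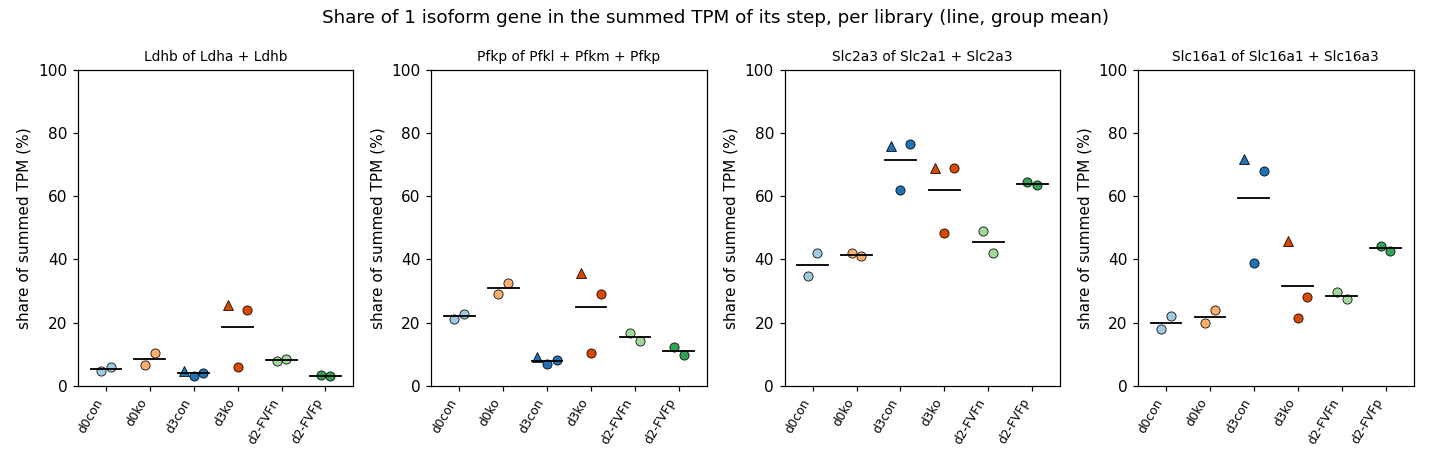
Share of Ldhb, Pfkp, Slc2a3 and Slc16a1 in the summed TPM of the genes of their step (vertical axes, percent, 0 to 100) in each library by group, with lines at group means and triangles for 75-base reads. Ldhb reaches 25.6% and 23.9% in d3ko replicates 1 and 3, and 6.11% in replicate 2.

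Among the lower steps, 3 genes rose at day 3. Aldoc (chr11:78323073-78327781), the aldolase isoform known from brain, was at 20.8 and 21.4 TPM in d0con, 25.1 and 24.0 in d0ko, 81.0, 154.8 and 108.0 in d3con, and 101, 162 and 179 in d3ko. It rose by 2.23 ± 0.30 in control (adjusted p = 0.00057) and 2.41 ± 0.30 in knockout cells (adjusted p = 0.0013). Both day 3 groups were well separated from day 0 and overlapped each other. Aldoa remained the major aldolase at 2474 to 2663 TPM at day 0, 2974, 5522 and 3807 in d3con, and 2922, 5945 and 4693 in d3ko. Aldoc thus formed at most 3.67% of their sum.

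Eno2 (chr6:124760053-124769673), known as neuron-specific enolase, was at 0.77 and 1.26 TPM in d0con, 1.85 and 1.44 in d0ko, 8.95, 6.75 and 7.06 in d3con, and 8.71, 9.98 and 19.9 in d3ko. The change was 2.71 ± 0.46 in control (adjusted p = 0.0016) and 2.79 ± 0.45 in knockout cells (adjusted p = 0.0034). It was also higher in Venus-positive than in Venus-negative cells of the doxycycline line, at 5.99 and 6.05 against 3.05 and 1.64 TPM (1.32 ± 0.35, adjusted p = 0.044). That call was lost when any 1 of the 4 libraries was left out (adjusted p of 0.051 to 0.20).

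Pgk1 (chrX:106187100-106203699), which makes the first ATP of the pathway, was at 745 and 834 TPM in d0con, 865 and 841 in d0ko, 1352, 2362 and 1620 in d3con, and 1465, 2579 and 1768 in d3ko. All day 3 libraries exceeded all day 0 libraries. The change was 1.01 ± 0.26 in the knockout (adjusted p = 0.020) and 0.96 ± 0.26 in control cells (adjusted p = 0.014), which was short of the required change. The call in the knockout was lost without d0ko replicate 1 (adjusted p = 0.11), d0ko replicate 2 (adjusted p = 0.12) or d3ko replicate 2 (0.76, adjusted p = 0.030). Of the 50-base stretches of its transcripts, 68.0% also occur in other annotated genes.

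The other enzymes gave no call. Hk1 and Hk2, which phosphorylate glucose, ranged from 15.5 to 64.8 and from 30.0 to 85.7 TPM, and Hk1 was higher in Venus-positive than in Venus-negative cells (0.69 ± 0.17, adjusted p = 0.036). Gpi1 ranged from 332 to 1051 TPM, Tpi1 from 868 to 2484, Pgam1 from 1083 to 2467, Eno3 from 12.7 to 92.9 and Pkm, the pyruvate kinase of proliferating cells, from 4098 to 8069 TPM. Pkm was slightly lower in Venus-positive cells (-0.33 ± 0.08, adjusted p = 0.035). Pfkm was lower there by more, though short of the required change (-0.79 ± 0.17, adjusted p = 0.020).

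Over the 18 enzymes, 13 had a positive log2 fold change in control and 14 in knockout cells from day 0 to day 3, with medians of 0.42 and 0.48 beside 0.07 over all genes in either comparison. The summed TPM of the 18 enzymes was 18261 ± 988 (SD, n = 2) in d0con and 28732 ± 6013 (n = 3) in d3con, a ratio of 1.57. It was 17862 ± 408 (n = 2) in d0ko and 28011 ± 8551 (n = 3) in d3ko, a ratio of 1.57 as well. On TMM-scaled CPM, which is not per length, the ratios were 1.30 and 1.34. There d3ko replicate 1, at 20414, lay within the d0ko range of 20017 to 21441. The TPM and CPM sums both include Gapdh, at 3276 and 3059 TPM in replicate 1 of d3con and d3ko. Its counts there were 48528 and 34943, against 6658 and 5508 in d3con replicates 2 and 3. In d3ko replicates 2 and 3 they were 5914 and 7649. Gapdh was not taken out of the CPM sums, so the CPM ratios are not free of it. Without Gapdh, d3ko replicate 1 was at 17808 TPM, within the day 0 range of 17248 to 18630. The other day 3 libraries stayed above day 0, at 20596 TPM or more. Eno1b, an intronless copy of Eno1, was left out. It was at 7466 to 7906 TPM at day 0 and 4611 to 12236 at day 3. The d3ko libraries ranged from 20867 to 37486 TPM and those of d3con from 23872 to 35457, so that the genotypes overlapped fully.

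Much of the Eno1 and Gapdh sequence also occurs in near-identical copies. Eno1, the ubiquitous enolase, was at 756 to 841 TPM at day 0, 769, 1287 and 965 in d3con and 643, 1254 and 1192 in d3ko. Only 8.21% to 12.98% of the counts assigned to Eno1 and its intronless copy Eno1b together went to Eno1 in the 14 libraries, and 72.2% of the 50-base stretches of Eno1 occur in other genes. With both rows summed the change from day 0 to day 3 was -0.11 ± 0.36 in control cells (adjusted p = 0.81) and 0.05 ± 0.36 in the knockout (adjusted p = 0.93). Gapdh, the enzyme widely used as a loading control, was at 3276 and 3059 TPM in the 2 libraries of 75-base reads and between 272 and 461 TPM in the 12 libraries of 50-base reads. Its mean was 7.93 times higher in the 75-base than in the 50-base libraries of day 3. Of its stretches of 50 and 75 bases, 82.5% and 80.3% occur in other genes, most of them in more than 10 (65.8% and 60.3%). Its standard error in the day comparison was 1.14, the highest of the 32 genes. The part of read length in the Gapdh values was not tested.

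The Hif and regulator genes were led by Vegfa, the main angiogenic growth factor and a classical Hif target. Vegfa (chr17:46016993-46032377) was at 4.78 and 3.04 TPM in d0con, 5.17 and 6.53 in d0ko, 73.7, 46.3 and 62.9 in d3con, and 57.1, 39.1 and 46.2 in d3ko. Every day 3 library exceeded every day 0 library. The change was 3.75 ± 0.33 in control (adjusted p = 0.00016) and 2.86 ± 0.31 in knockout cells (adjusted p = 0.00084), and the interaction of -0.89 ± 0.40 did not pass (adjusted p = 0.38). With doxycycline Vegfa was at 8.36 and 4.61 TPM in Venus-negative and 21.5 and 15.3 TPM in Venus-positive cells (1.48 ± 0.32, adjusted p = 0.022). The call was lost without d2-FVFn replicate 2 (1.12, adjusted p = 0.099).

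Bnip3 (chr7:138890836-138909506), a mitochondrial receptor for mitophagy, was at 161 and 159 TPM in d0con, 171 and 180 in d0ko, 240, 529 and 560 in d3con, and 187, 517 and 568 in d3ko. The lowest library of both day 3 groups was replicate 1, with 75-base reads. The change in control cells was 1.24 ± 0.45 (adjusted p = 0.043). Blocking on the clone gave 1.27 (adjusted p = 0.059), and blocking on the replicate number gave 0.92 (adjusted p = 0.055). It was also lost without any of d0con replicates 1 and 2 and d3con replicates 2 and 3, at adjusted p of up to 0.16. In the knockout the estimate was 1.10 ± 0.45 (adjusted p = 0.091). Of its 50-base stretches 62.4% are shared with other genes.

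Hif1a itself was at 54.1 to 60.8 TPM at day 0, 52.2 to 59.5 in d3con, 48.5 to 56.6 in d3ko, 86.1 and 92.0 in d2-FVFn and 124 and 113 in d2-FVFp. None of the comparisons passed for its transcript, with adjusted p = 0.071 in the doxycycline line. Pfkfb3 and Pfkfb4 make the activator fructose-2,6-bisphosphate. Pfkfb4 ranged from 1.73 to 5.01 TPM. The ankyrin repeat gene Ankrd37 ranged from 18.3 to 82.5 TPM. None of these passed.

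Pyruvate dehydrogenase is switched off by the kinases Pdk1 and Pdk3, which phosphorylate its catalytic subunit Pdha1. Pdk1 (chr2:71873215-71903858) was at 73.7 and 81.9 TPM in d0con, 59.8 and 63.0 in d0ko, 25.5, 53.7 and 43.9 in d3con, and 59.7, 50.3 and 110 in d3ko. It fell by 1.14 on the log2 scale in control cells (SE 0.34, adjusted p = 0.020), with no overlap of d0con and d3con, and the estimate in the knockout was 0.09 ± 0.34. The call in control cells was lost without d0con replicate 1, d0con replicate 2 or d3con replicate 1. Pdk3 ranged from 20.4 to 50.8 TPM and Pdha1 from 142 to 196 TPM, without a call.

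The spread among the day 3 libraries had a common pattern. In TPM, 16 of the 32 genes (50%) were highest in replicate 2 of both d3con and d3ko, against 19.1% of all genes tested. Egln3, the prolyl hydroxylase that is itself induced by Hif, was at 55.7 TPM in d3con replicate 2 against 16.3 and 20.4 in the other two, and at 63.6 TPM in d3ko replicate 2 against 12.3 and 24.4. Pfkfb3 was at 24.3 against 6.94 and 7.46 TPM in d3con, and at 31.3 against 3.75 and 5.64 TPM in d3ko. Of 40 tested genes of a wider Hif list, chosen with earlier results of these data known, 19 (47.5%) were highest in replicate 2 of both groups. At the other end, 1 of the 32 genes (Vegfa) and 2 of the 40 (Car9 and Pgm1) were lowest in replicate 2 of both groups, against 14.6% of all genes tested.

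Relative to the other two libraries of its group, the median difference over the 32 genes in replicate 2 was 0.46 in d3con and 0.44 in d3ko on the log2 scale of TMM-scaled CPM, beside 0.00 and -0.01 over all genes tested. In replicate 1 it was -0.40 and -0.72, and in replicate 3 -0.03 and 0.16. Replicates 2 and 3 had equal read lengths and came from different clones, whereas replicates 1 and 3 shared a clone and differed in read length. With 1 library of each kind per group, clone cannot be told apart from culture in the former pair, nor read length from culture in the latter. Fibroblast markers were lowest in replicate 2 of each group, at 60.6 and 136 TPM. Summed mesoderm markers were highest there, at 169 TPM against 20.6 and 36.3 in d3con, and 309 against 29.1 and 67.6 in d3ko. Most of these sums was T, at 131 and 212 TPM. Pluripotency sums were highest in replicate 2 of d3con (985 TPM) but lowest in that of d3ko (2668 TPM), and endoderm sums went the other way (838 and 170 TPM). The part of cell composition in the replicate 2 pattern was not tested. Vegfa was lowest in replicate 2 of both groups, as given above, Ldhb and Pfkp were highest in replicate 2 of d3con but lowest in that of d3ko, and Slc16a1 was lowest in replicate 2 of d3con.

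**Figure D5:**
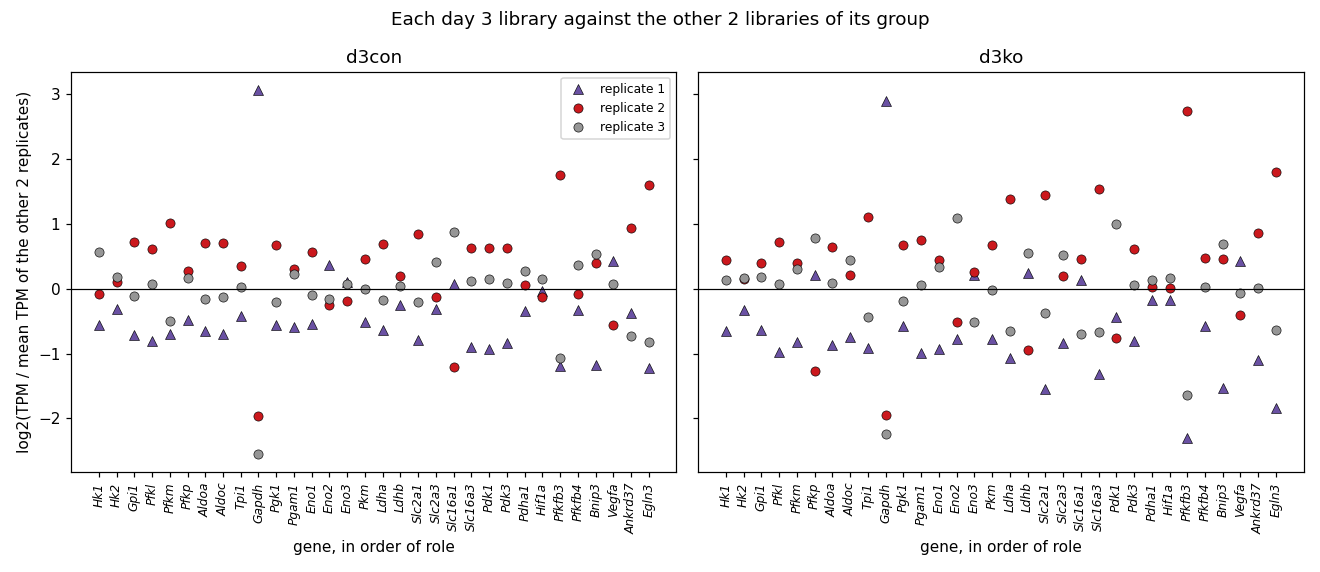
Log2 ratio of TPM in each day 3 library to the mean of the other 2 libraries of its group (vertical axis) for the 32 genes (horizontal axis), d3con on the left and d3ko on the right. Replicate 2 lies highest for Pfkfb3 and Egln3 in both groups, and replicate 1, of 75-base reads, lies near 3 for Gapdh.

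At day 0, 0 of the 32 genes passed between d0ko and d0con in edgeR or DESeq2, and 0% of all 13899 genes did so in edgeR. At an unadjusted p under 0.05 there were 0 of the 32 and 195 of all genes (1.4%), a share below the threshold itself. The spread in this fit came from all 10 day 0 and day 3 libraries, so a gene not called is not shown to be equal. Pfkp (0.49 ± 0.37) and Ldhb (0.62 ± 0.34) were higher in both d0ko than in both d0con libraries, the direction seen at day 3. Slc2a3 was also higher (0.15 ± 0.26), opposite to day 3, and Slc16a1 overlapped. Log2 fold changes of the 32 genes ranged from -0.54 to 0.67. The interaction likewise gave 0% of all genes in edgeR.

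Genes of the Hif pathway outside the 32 were taken from a list of 43. This list and the further lists below were chosen with earlier results of these data known, so their shares are not independent of the data. Of 40 tested, 18 rose (45%, beside 20.6% of all genes) and 3 fell (7.5%, beside 14.6%) in control cells, with a median of 1.12. In the knockout 12 rose (30%, beside 11.6%) and 2 fell (5%, beside 5.72%), with a median of 0.98. The median over all genes was 0.07 in either comparison. They included receptors, matrix enzymes and pH regulators. The Vegf receptor Flt1 rose from 0.19 and 0.23 TPM in d0con to 84.2, 61.9 and 94.3 in d3con, and was at 7.37, 11.7 and 1.27 TPM in d3ko. Kdr, the main signalling receptor for Vegfa, was at 6.23, 9.28 and 5.49 TPM in d3con and 27.4, 35.4 and 4.82 in d3ko. Epas1, which encodes Hif2a, fell from 39.8 and 22.6 TPM in d0con to 0.99, 1.12 and 1.04 TPM in d3con (-5.09, adjusted p = 0.00013) and was higher in d3ko at 4.2, 2.4 and 5.87 TPM (1.99, adjusted p = 0.013). Egln1, the principal oxygen sensor, was at 35.9, 50.9 and 35.4 TPM in d3con and 11.1, 23.9 and 8.25 TPM in d3ko (-1.51, adjusted p = 0.028). Between d3ko and d3con 3 of the 40 were higher (7.5%) and 2 lower (5%), near the 4.75% and 3.51% of all genes. In the doxycycline line 4 of 38 were higher (10.5%, beside 6.96%) and 0 lower (beside 1.47%), led by Flt1 at 8.40 and 13.1 TPM in Venus-positive against 0.18 and 0.45 TPM in Venus-negative cells.

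Of 28 further glycolysis genes, 19 were tested, of which 6 rose (31.6%, beside 20.6% of all genes) and 1 fell (5.26%, beside 14.6%) in control cells. In the knockout 1 rose (5.26%, beside 11.6%) and 0 fell (beside 5.72%). Hkdc1, a hexokinase domain protein, was at most 0.14 TPM at day 0, and at 37.2, 5.62 and 42.5 TPM in d3con and 0.41, 0.88 and 0.69 TPM in d3ko. Gckr, the regulator of glucokinase, was listed at 0 in both d0con libraries and at 15.1, 1.28 and 12.1 TPM in d3con, with at most 0.28 TPM in d3ko. Both were lowest in d3con replicate 2, which also had the lowest endoderm marker sum. Between d3ko and d3con 1 of the 19 was higher (5.26%, beside 4.75%) and 4 were lower (21.1%, beside 3.51%). In the doxycycline line 2 of 15 were higher (13.3%, beside 6.96%), with Hkdc1 at 0.96 and 2.19 TPM in Venus-positive and 0.03 and 0 TPM in Venus-negative cells.

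In the doxycycline line the 32 genes had a median log2 fold change of -0.10 beside 0.01 over all genes, and the summed TPM of the 18 enzymes was 18910 ± 459 (SD, n = 2) in Venus-negative and 17572 ± 131 (n = 2) in Venus-positive cells, a ratio of 0.93. The summed TPM of 10 immediate early and dissociation response genes was 598 and 548 in Venus-negative and 958 and 866 in Venus-positive cells, and the pluripotency sum was 7908 and 6385 against 5758 and 4232 TPM. Their part in the results was not tested.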

How the data were processed

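Total RNA of FACS-sorted cells was converted to cDNA with a low-input SMART-Seq kit. The authors aligned reads to mm10 with STAR and quantified each library with RSEM, versions not given in the sources used here. RSEM divides multi-mapping reads between genes by likelihood. The deposited expected counts are these unscaled estimates per gene, and the deposited TPM values were scaled by the authors for length and library total. Read lengths were read from effective gene lengths.

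Expected counts were rounded, and genes with at least 1 CPM in at least 2 libraries were kept. Counts were tested with edgeR 4.0.16 (R 4.3.3, TMM, quasi-likelihood F test, Benjamini-Hochberg adjustment), with 1 fit for the 10 day 0 and day 3 libraries and another for the 4 doxycycline libraries. Standard errors are the size of the log2 fold change over the square root of F. DESeq2 1.42.0 and limma 3.58.1 (on log2(TPM + 1)) were alternatives. On simulated counts with 200 genes changed 4-fold, 71.0% were recovered for d3con against d0con (5 false calls, 13899 genes), 56% for the genotype by day interaction (2 false calls, 13899 genes) and 96.0% for d2-FVFp against d2-FVFn (5 false calls, 12943 genes). The simulated libraries were independent, without clones, differing read lengths or a wider spread in d3ko. These figures therefore hold for a simpler setting than the real libraries.

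Groups and replicate numbers came from the sample labels. Within a genotype, same-numbered libraries of day 0 and day 3 share an ESC clone by the study's sample names, although their deviations were not correlated (r from -0.04 to 0.06). Between d3con and d3ko only the number is shared (r of 0.54, 0.29 and -0.01). The 4 doxycycline libraries are from the same line by their labels, which do not say whether same-numbered fractions share a culture (r of 0.29 in both pairs), and the reported tests had no block for it. Libraries of a clone may be technical repeats in part, and p-values measure the spread between libraries. All 32 genes are named; values per library are given for called genes and the most abundant gene of their step, and of other lists for up to 4 called genes of largest change per comparison. The genes and lists were chosen with earlier results of these data known. Shared stretches were searched in GENCODE vM21 transcripts; promoter windows and gene coordinates came from RefSeq (GRCm38.p6, the build of mm10).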

Additional observations from a re-analysis of the deposited data

How the results depend on the processing

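Counts of called genes among the 32 changed by over 1.5 times under these settings. They are given without the share of all genes called in each setting, and show only how stable the calls were. With DESeq2 on 2 groups against a 2-fold change, 5 genes were called for d3con against d0con (from 8), 3 for d3ko against d0ko (from 5), 1 for d3ko against d3con (from 4) and 0 for d2-FVFp against d2-FVFn (from 3). A fit of the 2 day 3 groups alone gave 1 call, and leaving out the 75-base libraries, chosen after seeing the data, gave 0 (7 and 7 in the day comparisons). Without both day 3 replicate 2 libraries, also chosen later, the counts were 7, 4 and 6. DESeq2 gave 2 calls for the interaction (from 0). The causes were not tested, apart from the fewer libraries and the stricter null that these settings have by construction. When each library was left out in turn the counts ranged from 5 to 8, 3 to 6, 1 to 7, 0 to 0 (day 0), 0 to 4 (interaction) and 1 to 4 (doxycycline line). The lone library then left in an arm of 2 was assumed to vary like the other groups. The ratio of summed enzyme levels, d2-FVFp over d2-FVFn, was 0.89 on TMM-scaled CPM in place of 0.93.

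A replicate block gave counts of 7, 5, 4, 0, 0 and 4, and a clone block gave 7 and 5 for the day comparisons. The block removed the call of Bnip3 and no other called gene, and added Egln3, lower in Venus-positive cells, in the doxycycline line. Of the 20 called values, none changed sign in 271 planned and 54 further alternative values, of which 49 no longer passed. On log2(TPM + 1) the median of all genes moved to 0.20 and 0.16 in the day comparisons from 0.07, and the split of all calls between d3ko and d3con to 383 higher and 465 lower, from 660 and 488. All 32 genes were counted in every library, so that no value rests on a count of 0.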

Other observations

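Of 11 tested genes that pass pyruvate to the mitochondria, 3 rose and 2 fell from d0con to d3con, shares of 27.3% and 18.2% that were near the 20.6% and 14.6% of all genes. From d0ko to d3ko 2 rose (18.2%, beside 11.6%) and 0 fell (beside 5.72%). The phosphatase gene Pdp2, whose product reactivates pyruvate dehydrogenase, rose by 1.85 ± 0.23 in control cells (SE, edgeR quasi-likelihood test, adjusted p = 0.00045) and 1.11 ± 0.23 in the knockout (adjusted p = 0.0081). Mpc1, a subunit of the mitochondrial pyruvate carrier, was at 69.4 and 55.5 TPM in d0con, 24.5, 34.95 and 29.6 in d3con, and 67.3, 58.3 and 92.6 in d3ko, where it was higher than in d3con by 1.30 ± 0.21 (adjusted p = 0.011). Pdk4 was higher in d3ko than in d3con (1.95 ± 0.38, adjusted p = 0.017) and lower in Venus-positive than in Venus-negative doxycycline cells (-1.56 ± 0.32, adjusted p = 0.019). In that line 1 of 11 was higher, Mpc2, and 1 lower, beside 6.96% and 1.47% of all genes.

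Of 14 tested regulators of glycolysis, 2 rose and 4 fell in control cells (14.3% and 28.6%, beside 20.6% and 14.6% of all genes), and 2 rose and 2 fell in the knockout (14.3% each, beside 11.6% and 5.72%). Trp53 fell in both, from 877 and 786 TPM in d0con to 197, 230 and 233 in d3con, and from 789 and 766 TPM in d0ko to 295, 318 and 357 in d3ko. The pluripotency-associated factors Esrrb and Tfcp2l1 were higher in d3ko than in d3con, with Esrrb at 50.02, 10.5 and 85.4 against 1.92, 2.09 and 1.69 TPM, lowest in the knockout in replicate 2. In the doxycycline line 0 rose and 1 fell, Lin28b (-1.27 ± 0.19, adjusted p = 0.0067).

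Of 8 pentose phosphate genes, 3 rose in control cells (37.5%, beside 20.6%) and 1, Rpia, in the knockout (12.5%, beside 11.6%), with 0 called between the genotypes or in the doxycycline line. The remaining lists hold too few genes for their shares to be read against the background. Of 4 tested gluconeogenesis genes, 2 rose and 2 fell in control cells and 1 rose and 2 fell in the knockout. Fbp2 was at 5.30 and 4.45 TPM in d0con, listed at 0 in all 3 d3con libraries, and at 0.44, 0.16 and 1.96 TPM in d3ko. Of 4 tested near-identical copies, the retrogenes Aldoart1 and Aldoart2, which share stretches with Aldoa, rose in both genotypes.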
